A study of Mus musculus with 12 samples.

Results

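The immediate early genes and the Nr4a nuclear receptors described here are Fos, Fosb, Jun, Junb, Egr1, Atf3, Ier2, Nr4a1, Nr4a2 and Nr4a3, which are 10 of the 23042 genes listed per tissue. They were chosen by name, and each symbol had 1 entry in both tables. RNA was sequenced from heart ventricles and from epididymal white adipose tissue (EWAT) of wild type (WT) mice and of MED13cTg mice, which carry a transgene for MED13, a subunit of the Mediator kinase module, that is expressed in the heart. The 4 groups (WT and MED13cTg ventricles, WT and MED13cTg EWAT) held 3 male mice each, with 1 library per mouse. All mice were C57BL/6 littermates kept on normal chow, labelled as 6 weeks old and sampled fed, late in the day. No other allele or agent is named, and the promoter that drives the transgene is not given in the sources used here.

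Immediate early genes are transcribed within minutes of a stimulus from factors already present in the cell, without new protein synthesis, and their transcripts are short-lived. Fos, Fosb, Jun and Junb encode subunits of the AP-1 transcription factor, in which a Fos family protein pairs with a Jun family protein. Egr1 encodes a zinc finger factor, Atf3 a stress-induced bZIP factor, and Ier2 a small nuclear protein induced by serum. Nr4a1, Nr4a2 and Nr4a3 encode nuclear receptors with no known physiological ligand, so that their activity depends largely on how much of them is made. In heart and fat these genes are known to respond to adrenergic signals through cAMP and the factor CREB, which binds the cAMP response element (CRE), and the handling of tissue before freezing can also induce them.

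Promoter sequences were taken from RefSeq on GRCm38.p6 for 8 of the 10 members. Each is the 250 bases just before the annotated start of the gene, written 5′ to 3′ on the gene's own strand, and lies outside the transcript. The 3 shown belong to the members that stood furthest apart in 1 WT ventricle library, described further on. Capitals mark matches to the CRE core TGACG (or CGTCA on the other strand) and to the EGR site GCGNGGGCG.
Nr4a1: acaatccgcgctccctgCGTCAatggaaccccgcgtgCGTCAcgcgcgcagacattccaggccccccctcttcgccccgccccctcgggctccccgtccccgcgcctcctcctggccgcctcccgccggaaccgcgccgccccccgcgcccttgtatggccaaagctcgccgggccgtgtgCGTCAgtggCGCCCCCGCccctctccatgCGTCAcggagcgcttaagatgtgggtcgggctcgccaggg
Nr4a3: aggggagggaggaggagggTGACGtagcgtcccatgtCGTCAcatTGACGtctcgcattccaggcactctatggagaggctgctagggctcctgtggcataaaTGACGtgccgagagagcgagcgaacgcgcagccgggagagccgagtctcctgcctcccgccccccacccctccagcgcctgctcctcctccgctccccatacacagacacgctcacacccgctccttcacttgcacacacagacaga
Fosb: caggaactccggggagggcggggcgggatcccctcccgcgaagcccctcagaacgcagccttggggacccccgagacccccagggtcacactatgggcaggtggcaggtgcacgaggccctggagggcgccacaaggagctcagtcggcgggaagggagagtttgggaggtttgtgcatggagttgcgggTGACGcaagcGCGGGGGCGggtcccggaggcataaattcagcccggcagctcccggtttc
The Nr4a1 window is chr15:101266596-101266845 on the plus strand, the Nr4a3 window is chr4:48045055-48045304 on the plus strand, and the Fosb window is chr7:19310046-19310295 on the minus strand.

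The CRE core was present in 7 of the 8 windows, all but that of Jun, against 17.8% of 32851 mouse promoters of the same length. Nr4a1, Nr4a2 and Nr4a3 had 4 matches each, Fos had 2, and Fosb, Junb and Atf3 had 1 each. The EGR site was found in the windows of Fosb, Nr4a1 and Nr4a2, against 4.7% of all promoters. The TATA motif TATAAA was found in 2 windows, against 12.4%. The full CRE TGACGTCA, which contains the core on both strands, the AP-1 site TGACTCA, the Nr4a site AAAGGTCA and the CArG box bound by serum response factor were in 0 of the 8 windows. Those 4 were in 1.55%, 4.46%, 1.34% and 1.47% of all promoters. Both strands were searched. The 8 windows were 58.4% to 80.0% G and C, and the promoters compared were not matched for this. A match is a description of letters and not of binding, and no match says only that the letters are absent from this window. For Junb the annotated start could not be matched to the transcript models, so its window may be misplaced.

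Expression is given in FPKM, the fragments of a gene per kilobase of transcript, scaled to the mapped fragments of the library. FPKM is normalized for length, so that levels can be set side by side between genes. In ventricles Med13 measured 13.1, 10.6 and 11.5 FPKM in WT and rose to 263, 181 and 204 FPKM with the transgene, and in EWAT it lay between 7.84 and 11.0 FPKM in all 6. The 8 cardiomyocyte markers summed to between 66519 and 94768 FPKM in ventricles. Ventricle libraries were split by rank correlation into 2 clusters, a number set in advance. The split crossed genotype, with WT replicate 1 and MED13cTg replicates 1 and 2 in one and the other 3 libraries in the other. Rank correlations between ventricle libraries were all between 0.944 and 0.969. In EWAT the 18 epididymis markers summed to between 83537 and 107600 FPKM in WT, and to 13378, 259 and 84397 FPKM in MED13cTg replicates 1, 2 and 3. The 7 testis germ cell markers summed to between 213 and 303 FPKM in WT, and to 13638, 5.83 and 344 FPKM in the MED13cTg mice. The 13 adipocyte markers summed to between 13936 and 33408 FPKM in WT, and to 1508, 84360 and 18287 FPKM in the MED13cTg mice. Rank correlations with the other 5 EWAT libraries were at most 0.494 for MED13cTg replicate 1. In each of these EWAT marker lists no gene was at 0 in every library. In such bulk samples fewer cells of a type and less RNA per cell cannot be told apart.

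In ventricles none of the immediate early or Nr4a genes passed the test of genotype, and their levels varied widely between mice of the same genotype. WT replicate 1 had the highest value for 8 of the 10 genes, and WT replicate 3 the lowest for 7 of the 10. The Nr4a receptors are described first, since Nr4a1 had the widest range of any member.

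Nr4a1, a receptor induced by adrenergic and stress signals, was at 58.8, 13.8 and 4.57 FPKM in the WT ventricles, compared with 7.57, 6.10 and 4.12 FPKM in the MED13cTg ventricles. One WT mouse was far above all others, another lay above all MED13cTg mice, and the third lay inside the MED13cTg range. WT values thus spanned 12.9-fold and MED13cTg values 1.84-fold. The means were 25.7 ± 29.0 and 5.93 ± 1.74 FPKM (SD, n = 3 each), and the log2 fold change of MED13cTg against WT was -1.33 with a standard error of 0.78 (limma, adjusted p = 0.966). WT replicate 1 was 8.12-fold above the mean of the other 5 libraries, a ratio reached by 14 of the 12589 genes tested, Nr4a1 included. Without that library the log2 fold change of Nr4a1 was -0.42 with a standard error of 0.44 (limma, adjusted p = 0.660). Within the library clusters the log2 difference was -2.94 for WT replicate 1 alone against MED13cTg replicates 1 and 2. It was -0.83 for WT replicates 2 and 3 against MED13cTg replicate 3 alone. Each of these values rests on a single library of 1 genotype, and the first on the WT library that stood far above the rest.

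Nr4a3, another receptor of the family, was at 1.48, 0.303 and 0.451 FPKM in WT animals, compared with 0.615, 0.417 and 0.368 FPKM in MED13cTg ventricles. WT replicate 1 was again alone at the top, 3.44-fold above the mean of the other 5, and the genotypes overlapped. Nr4a2, best known for its role in dopamine neurons, was at 0.981, 0.713 and 0.397 FPKM in WT animals, compared with 0.741, 0.662 and 0.702 FPKM in MED13cTg mice. Its group means were nearly equal, at 0.697 ± 0.293 and 0.702 ± 0.0398 FPKM (SD, n = 3 each), with a wider range in WT. Nr4a2, Nr4a3 and Fosb had a mean under 1 FPKM in both tissues and were left out of the main test.

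Of the AP-1 subunits, Jun was the most abundant, at 28.2, 34.9 and 23.6 FPKM in WT animals, compared with 24.2, 22.2 and 27.2 FPKM in MED13cTg ventricles. It had the narrowest range of the members in WT, 1.48-fold, and its groups overlapped. Its log2 fold change was -0.22 with a standard error of 0.16 (limma, adjusted p = 0.966). Junb was at 12.9, 8.98 and 6.79 FPKM in WT animals, compared with 9.05, 12.6 and 8.31 FPKM in MED13cTg ventricles. All MED13cTg values of Junb lay inside the WT range, with a log2 fold change of 0.08 and a standard error of 0.24.

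Fos, the partner subunit, was at 2.68, 1.57 and 0.668 FPKM in WT animals, compared with 1.26, 2.14 and 0.859 FPKM in MED13cTg ventricles. All MED13cTg values of Fos lay inside the WT range. Fosb was at 0.720, 0.143 and 0.0943 FPKM in WT animals, compared with 0.107, 0.131 and 0.130 FPKM in MED13cTg ventricles. WT replicate 1 was the only library that stood apart for Fosb, 5.05-fold above the next highest, while the other 5 lay close together. The promoter windows of Nr4a1, Nr4a3 and Fosb printed above thus belong to the members with the highest ratios of WT replicate 1 to the mean of the rest, at 8.12, 3.44 and 5.96.

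Egr1 was at 4.65, 3.73 and 1.70 FPKM in WT animals, compared with 4.66, 7.30 and 2.75 FPKM in MED13cTg ventricles, with the highest value in MED13cTg replicate 2. The means of Egr1 were 3.36 ± 1.51 and 4.90 ± 2.29 FPKM (SD, n = 3 each), with a log2 fold change of 0.43 and a standard error of 0.37 (limma, adjusted p = 0.966). Its log2 fold change was 0.12 without WT replicate 3, 0.14 without MED13cTg replicate 2 and 0.72 without MED13cTg replicate 3. Egr1 was the member with the highest ratio of MED13cTg to WT means in ventricles, 1.46, and its groups overlapped. Ier2 was at 26.4, 14.3 and 11.4 FPKM in WT animals, compared with 18.5, 22.7 and 12.4 FPKM in MED13cTg mice, with nearly equal means of 17.3 ± 7.95 and 17.9 ± 5.21 FPKM. Atf3 was at 5.70, 2.44 and 1.57 FPKM in WT animals, compared with 2.62, 3.16 and 2.57 FPKM in MED13cTg mice. The 3 MED13cTg values of Atf3 lay inside the WT range, and without WT replicate 1 its log2 fold change went from -0.05 to 0.34 (limma, adjusted p = 0.445).

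**Figure D1:**
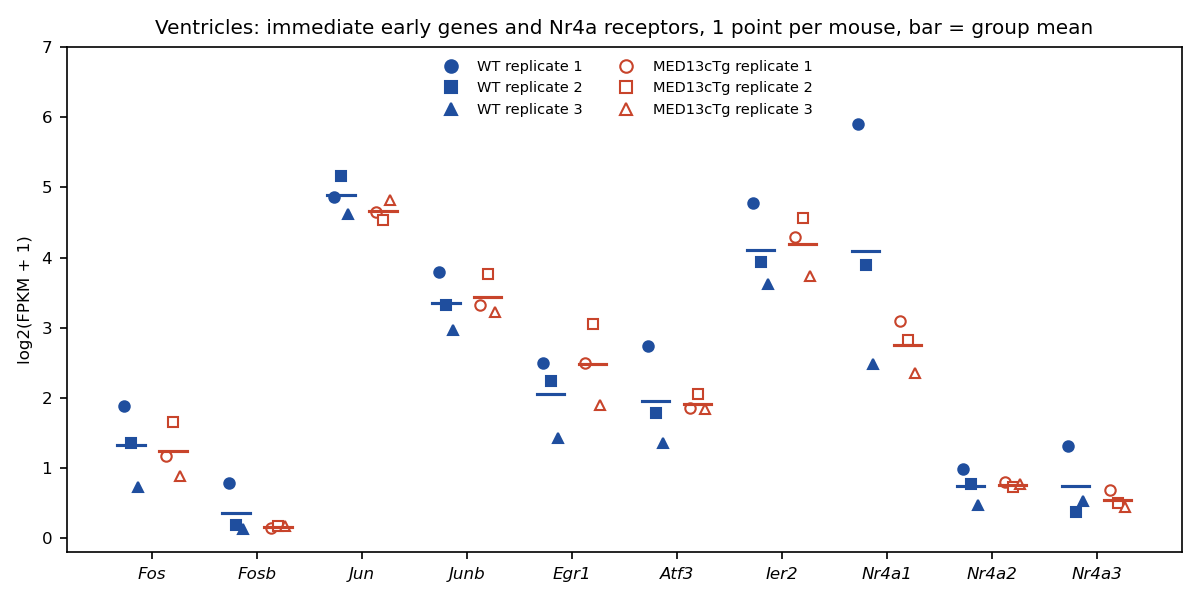
Levels of the 10 members in ventricles, as log2(FPKM + 1) on the vertical axis, with 1 point per mouse and a bar at each group's mean. WT replicate 1 (filled circle) is the highest of the 6 libraries for 8 members, and the genotypes overlap for all 10.

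In the limma fit of log2(FPKM + 1) across 12589 ventricle genes, 0 of the 7 members tested passed an adjusted p of 0.05, and 0 had an unadjusted p under 0.05. Among all genes tested, 0.0238% were called higher and 0.0318% lower in MED13cTg ventricles, and 4.73% had an unadjusted p under 0.05. The adjusted p of the members ran from 0.966 to 0.991. With no filter on low values all 10 members could be tested, and the lowest adjusted p was 0.956. Of the 10 members, 0 had all MED13cTg libraries above all WT libraries and 0 had them below. Among all genes tested the shares were 3.46% above and 5.85% below. By mean log2 values 4 members were higher and 6 lower in MED13cTg mice, with a median log2 fold change of -0.07 against -0.01 over all genes tested. Without WT replicate 1 the median over the members was 0.16, and without WT replicate 3 it was -0.31.

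The spread between mice of the same genotype was wide for most members in ventricles. The residual SD on the log2 scale was 1.25 for Nr4a1, at the 98.7th percentile of all genes tested. It was 0.565 for Egr1, 0.514 for Ier2, 0.509 for Atf3 and 0.487 for Fos, at percentiles from 94.6 to 96.2. For Junb it was 0.358 and for Jun 0.216, against a median of 0.185 over all genes. Among genes within 2-fold of their own level, the percentiles ran from 63.8 for Jun to 98.6 for Nr4a1, in the same order as before. WT replicate 1 was at least 2-fold above the mean of the other 5 libraries for 3 of the 7 members tested (Nr4a1, Atf3 and Fos), and for 0.921% of all genes. It was the highest of the 6 libraries for 5 of those 7 and for 23.7% of all genes, and WT replicate 3 was the lowest for 5 of those 7 and for 19.3% of all genes. The members are not independent of each other, since they were read from the same 6 libraries.

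The endothelial and neutrophil marker sums of WT replicate 1 lay within the range of the other ventricle libraries. The endothelial sum was 465 FPKM there, against 358 to 531 FPKM in the other 5. The neutrophil sum was 10.7 FPKM, against 2.42 and 2.40 FPKM in the other WT mice and 5.69 to 22.5 FPKM in MED13cTg mice, and of that list Mpo was at 0 in every ventricle library. Relative depth, estimated from the lowest FPKM values, was between 0.914 and 1.02 of WT replicate 1 in all ventricle libraries. The sum of the 10 heat shock genes was 1298 FPKM in WT replicate 1, against 1165 and 1235 FPKM in the other WT mice and 1046 to 1142 FPKM in MED13cTg mice. By gene, WT replicate 1 was the highest library for 7 of the 10, with Hspa1a and Hspa1b read from 1 joined entry, and for 23.7% of all genes tested. Hspa8, Hspd1 and Hspa5 were highest in another library. The sum of the epididymis markers, 129 FPKM in that mouse and 53.3 to 116 FPKM in the other 5, was also highest there. The part of any of these in the values of WT replicate 1 was not tested.

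**Figure D2:**
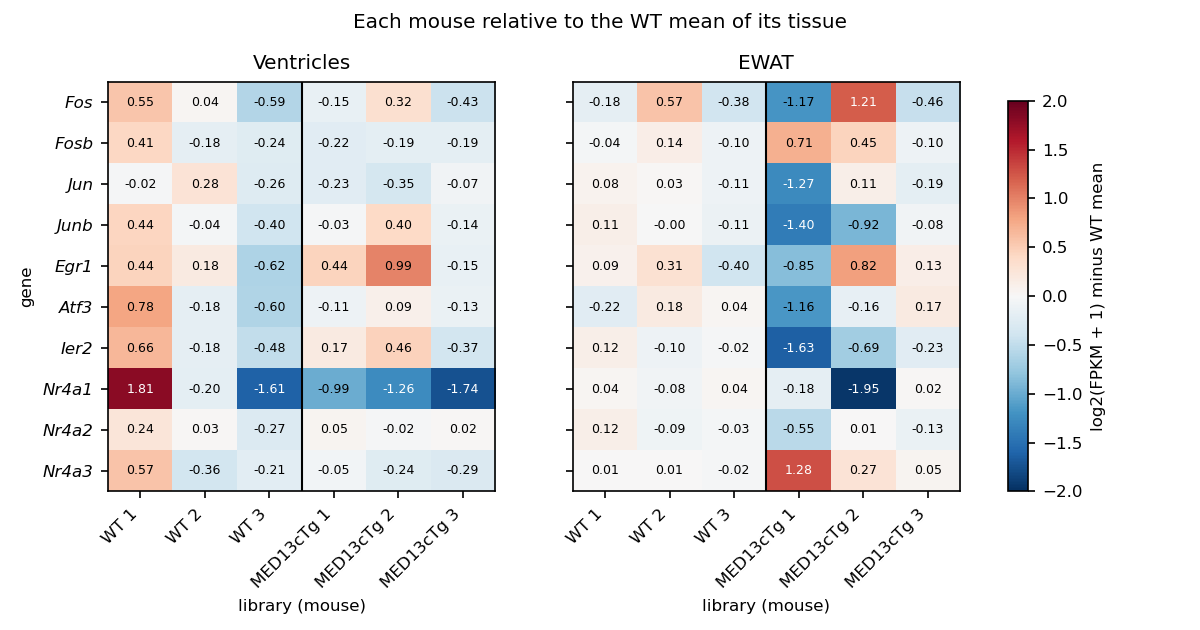
Each cell shows log2(FPKM + 1) of 1 member in 1 mouse minus the WT mean of its tissue, with genes in rows, libraries in columns and a colour scale cut at 2 on either side. In ventricles the highest value is 1.81 for Nr4a1 in WT replicate 1, and in EWAT the WT columns are pale while the columns of MED13cTg replicates 1 and 2 hold values from -1.95 to 1.28.

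In EWAT the WT mice had closely similar levels of most members, and the MED13cTg mice did not. Junb and Ier2 were lower on average in MED13cTg EWAT, Nr4a3 was higher, and none of the members passed the test. MED13cTg replicate 1 had the lowest value for 7 of the 10 genes and the highest for Fosb and Nr4a3. It is also the library in which the germ cell marker sum was 13638 FPKM. MED13cTg replicate 2 had the highest value for Fos, Jun and Egr1 and the lowest for Nr4a1. It is the library in which the epididymis sum was 259 FPKM and the macrophage sum 351 FPKM, against 83.3 to 184 FPKM in WT. A fit with the epididymis sum as a covariate was run as an alternative. Beyond it, the part of tissue makeup in each EWAT value below was not tested.

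Nr4a1 was at 14.7, 13.5 and 14.7 FPKM in WT EWAT, a span of 1.09-fold, and at 12.5, 2.95 and 14.5 FPKM in MED13cTg EWAT. A single library, MED13cTg replicate 2, made the difference, and the other 2 MED13cTg mice lay inside or just under the WT range. The means were 14.3 ± 0.688 and 9.98 ± 6.16 FPKM (SD, n = 3 each), with a log2 fold change of -0.70 and a standard error of 0.55 (limma, adjusted p = 0.738). Without MED13cTg replicate 2 the log2 fold change was -0.08, and with the epididymis marker sum as a covariate it was 0.24 (limma, adjusted p = 0.705).

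Nr4a3 was at 0.0257 and 0.0269 FPKM in 2 WT mice and was listed at 0 in the third. It was at 1.48, 0.228 and 0.0541 FPKM in MED13cTg EWAT. All MED13cTg values lay above all WT values (exact permutation test, two-sided, p = 0.1, the smallest that 3 against 3 allows). The value of MED13cTg replicate 3 was close to the WT values, and the highest came from the library with the high germ cell sum. Nr4a2 was at 1.03, 0.752 and 0.827 FPKM in WT animals, compared with 0.279, 0.883 and 0.708 FPKM in MED13cTg EWAT, with only MED13cTg replicate 1 well below the rest.

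Ier2 was at 29.1, 24.9 and 26.4 FPKM in WT EWAT, compared with 7.93, 16.2 and 22.7 FPKM in MED13cTg EWAT, so that the genotypes did not overlap and MED13cTg was lower (exact permutation test, two-sided, p = 0.1). The means were 26.8 ± 2.12 and 15.6 ± 7.40 FPKM (SD, n = 3 each). Its log2 fold change was -0.85 with a standard error of 0.39 (limma, adjusted p = 0.738), and without MED13cTg replicate 1 it was -0.46. Atf3 was at 1.95, 2.91 and 2.53 FPKM in WT animals, compared with 0.539, 2.07 and 2.87 FPKM in MED13cTg EWAT. The low value of Atf3 came from MED13cTg replicate 1, and the other 2 lay inside the WT range. Egr1 was at 8.10, 9.59 and 5.46 FPKM in WT animals, compared with 3.72, 14.1 and 8.35 FPKM in MED13cTg EWAT, with its lowest and highest values both in MED13cTg mice and a log2 fold change of 0.03.

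Among the AP-1 subunits, Junb was at 23.4, 21.5 and 19.9 FPKM in WT animals, compared with 7.52, 10.9 and 20.4 FPKM in MED13cTg EWAT. The first 2 MED13cTg values were below all WT values and the third was inside their range, with a log2 fold change of -0.80 and a standard error of 0.37 (limma, adjusted p = 0.738). Jun was at 16.5, 15.9 and 14.4 FPKM in WT animals, compared with 5.91, 16.9 and 13.6 FPKM in MED13cTg EWAT. Only MED13cTg replicate 1 was far from the others for Jun, and without it the log2 fold change was -0.04 in place of -0.45. Fos was at 1.64, 3.44 and 1.30 FPKM in WT animals, compared with 0.328, 5.94 and 1.18 FPKM in MED13cTg EWAT, an 18.1-fold span among the MED13cTg mice. Fosb was at 0.221, 0.379 and 0.165 FPKM in WT animals, compared with 1.05, 0.705 and 0.165 FPKM in MED13cTg EWAT. Fos and Fosb thus had different orders of the libraries, with Fos lowest and Fosb highest in MED13cTg replicate 1.

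**Figure D3:**
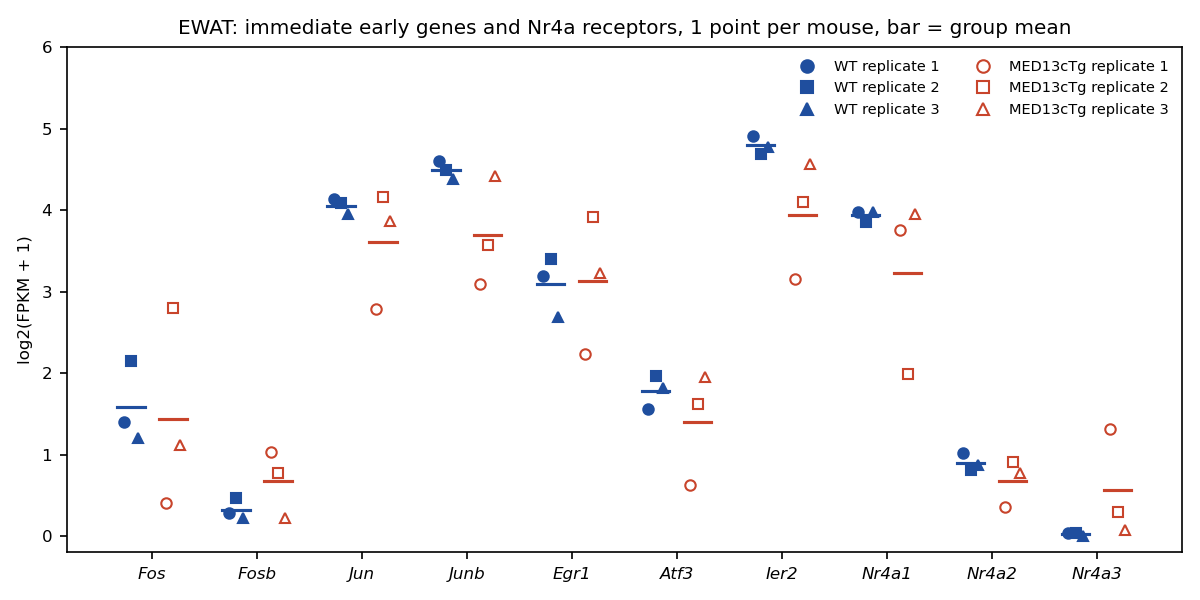
Levels of the 10 members in EWAT, as log2(FPKM + 1) on the vertical axis, with 1 point per mouse and a bar at each group's mean. WT mice (filled) lie close together for most members, and MED13cTg replicate 1 (open circle) is the lowest for 7 of 10.

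Across 14967 EWAT genes, 0 of the 7 members tested passed an adjusted p of 0.05 in limma and 0 had an unadjusted p under 0.05. The shares of all genes tested were 0% called higher, 0.0134% called lower and 1.25% with an unadjusted p under 0.05. The deviations of same-numbered EWAT libraries correlated at 0.144 to 0.347, and those of differently numbered ones at -0.417 to 0.168. With the replicate block 0 genes in place of 2 were called lower, with an adjusted p of 0.751 for Ier2 (limma). With no filter all 10 members were tested and the lowest adjusted p was 0.740. Of the 10 members, 1 lay above in all MED13cTg libraries (Nr4a3) and 1 below (Ier2). The shares of all genes tested were 4.88% and 7.8%, so that each count was close to the background. Nr4a3, with a mean of 0.302 FPKM, was not tested and is not among the genes that give these shares. The median log2 fold change was -0.30 over the 10 members and 0.01 over all genes tested, with 3 members positive and 7 negative. Without MED13cTg replicate 1 the median over the members was -0.0175.

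The spread within genotype of the members in EWAT was close to that of other genes. The residual SD was 0.936 for Fos, 0.768 for Nr4a1 and 0.650 for Egr1, and between 0.482 and 0.516 for Jun, Ier2, Atf3 and Junb. The median over all EWAT genes was 0.574, so that 3 of the 7 members lay above it. MED13cTg replicate 1 was the lowest library for 6 of the 7 members tested and for 37.2% of all genes. It was the highest for 0 of those 7 and for 40.2% of all genes. MED13cTg replicate 3, whose epididymis, germ cell and adipocyte sums were near those of WT mice, was inside the WT range for Junb, Egr1, Atf3 and Nr4a1. It was below that range for Fos, Fosb, Jun, Ier2 and Nr4a2, at no less than 0.555 of the WT mean, and above it for Nr4a3.

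**Figure D4:**
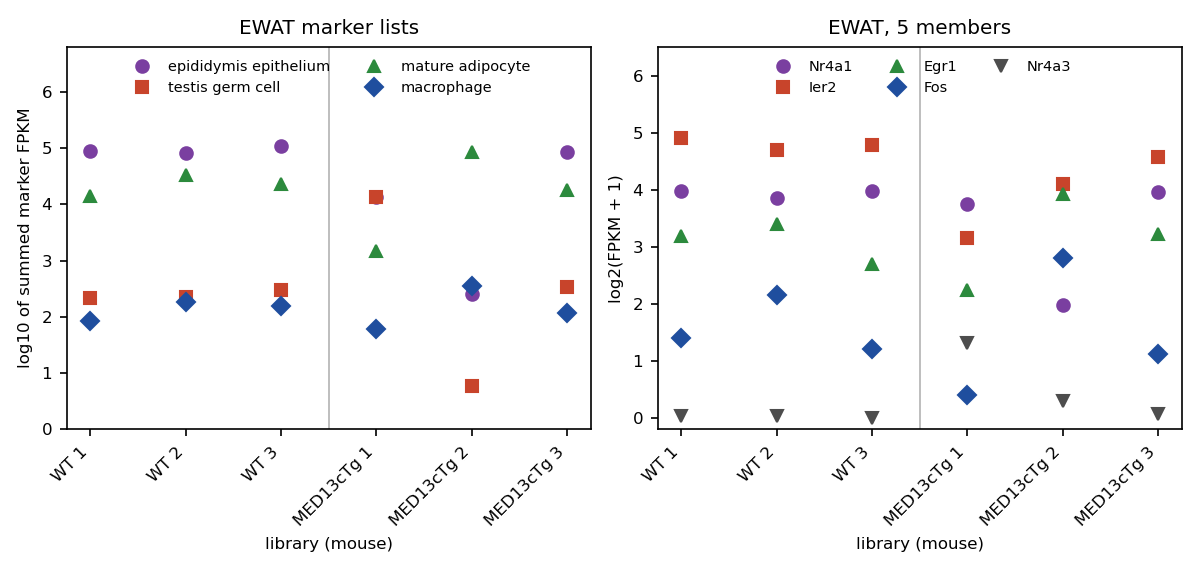
Left, summed FPKM of 4 marker lists in each EWAT library on a log10 scale. Right, log2(FPKM + 1) of 5 members in the same libraries. The epididymis sum is lowest (259 FPKM) in MED13cTg replicate 2, where Nr4a1 is also lowest (2.95 FPKM), and the germ cell sum is highest (13638 FPKM) in MED13cTg replicate 1, where Nr4a3 is highest (1.48 FPKM).

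**Figure D5:**
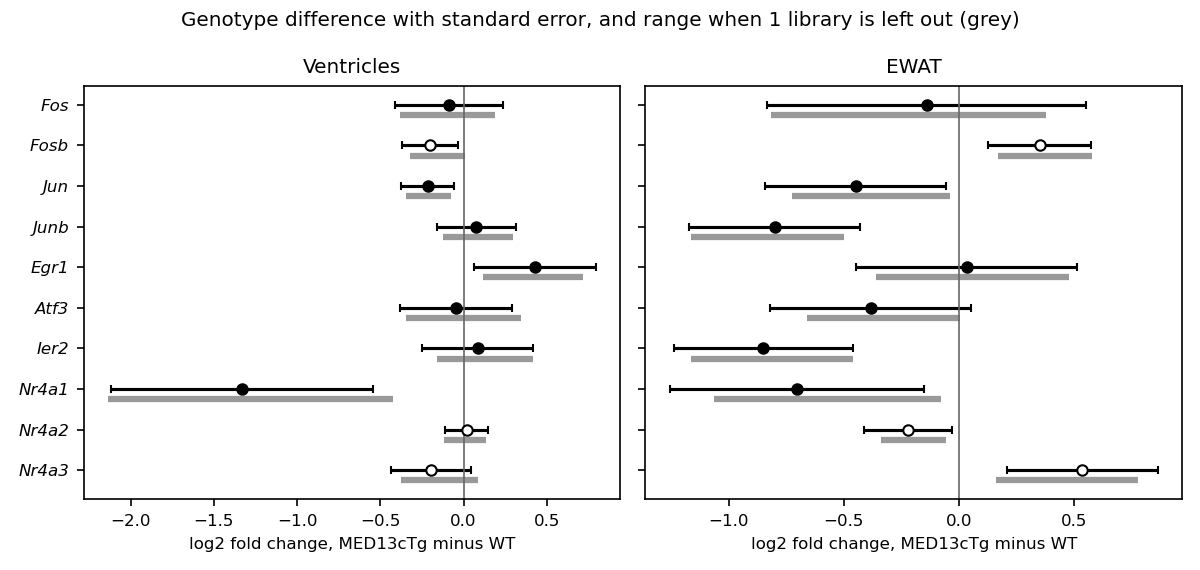
Log2 fold change of MED13cTg against WT on log2(FPKM + 1), with its standard error from limma (points), and the range of that value when 1 library at a time is left out (grey bars). Filled points were in the main test and open points had a mean under 1 FPKM. The widest error in ventricles is that of Nr4a1, and the grey bars of 7 members in ventricles and 3 in EWAT cross 0.

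The order of the levels is given side by side for the tissues, since their tables were estimated separately and no test was made between them. In WT ventricles Jun was highest, at 28.9 ± 5.68 FPKM, followed by Nr4a1, Ier2, Junb, Egr1, Atf3, Fos, Nr4a3, Nr4a2 and Fosb. The only neighbours in that order whose WT values did not overlap were Junb and Egr1. In WT EWAT Ier2 was highest, at 26.8 ± 2.12 FPKM, followed by Junb, Jun, Nr4a1, Egr1, Atf3, Fos, Nr4a2, Fosb and Nr4a3. There the only neighbours that overlapped were Jun and Nr4a1, and Atf3 and Fos. In MED13cTg ventricles the order began with Jun, Ier2 and Junb, with Nr4a1 the fourth at 5.93 ± 1.74 FPKM. In MED13cTg EWAT the order began with Ier2, Junb and Jun, and every neighbouring pair overlapped.

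The other genes of the pathway were read from 5 lists, none of which had a gene called in either tissue by limma at an adjusted p of 0.05. The first held 51 other immediate early genes, 43 of them tested in ventricles, with 17 log2 fold changes above 0 and 26 below and a median of -0.08. Of these, 4 had an unadjusted p under 0.05 (limma), against 4.73% of all genes tested. WT replicate 1 was the highest library for 18 of the 51 and for 23.7% of all genes tested. Genes of this list that were high there were chosen after their values were seen. Klf2, a shear stress-responsive factor of endothelium, was at 108 FPKM in that library and at 45.5 to 76.9 FPKM in the others. Klf4, a related factor, was at 44.0 FPKM against 20.2 to 26.2 FPKM. Sik1, a kinase induced by cAMP, was at 17.4 FPKM against 7.46 to 9.92 FPKM. None of the 51 reached the ratio of Nr4a1, and that of Klf2, the highest of them, was 1.95.

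Of the genes of this list that were tested, 0 had all MED13cTg ventricles above all WT ventricles and 2 had them below, against 3.46% and 5.85% of all genes tested. Gadd45b, a stress-induced gene of the DNA damage response, was at 20.9, 21.0 and 18.1 FPKM in WT animals, compared with 13.9, 7.69 and 13.2 FPKM in MED13cTg ventricles (limma, log2 fold change -0.78, adjusted p = 0.945). Mafk, a small Maf transcription factor, was at 23.2 ± 1.34 and 18.7 ± 1.63 FPKM (SD, n = 3 each). In EWAT 48 of the 51 were tested, 16 above 0 and 32 below, with a median of -0.14. Of those tested, 2 had an unadjusted p under 0.05 (limma), against 1.25% of all genes tested. MED13cTg replicate 1 was the lowest library for 31 of the 51 and for 37.2% of all genes tested. The 2 genes without overlap were both lower in MED13cTg EWAT, where 7.8% of all genes lay below. Jund, the third Jun family subunit of AP-1, was at 74.6, 55.2 and 65.0 FPKM in WT animals, compared with 29.6, 35.6 and 49.1 FPKM in MED13cTg EWAT (limma, adjusted p = 0.738). Gadd45a was at 14.7 ± 0.784 and 8.44 ± 3.23 FPKM.

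A few of the same list were high in MED13cTg replicate 1 of EWAT, where most members were lowest, and they too were chosen after their values were seen. Crem, whose product acts at CREs and has an abundant form in spermatids, was at 91.0 FPKM there and at 5.30 to 9.24 FPKM in the other 5 libraries. Egr3, a relative of Egr1, was at 16.1 FPKM there and at 0.0697 to 0.316 FPKM in the others. Arc, an immediate early gene of neurons, was at 64.0 FPKM there and at 0.384 to 2.12 FPKM in the others. Egr4 was at 7.46 FPKM there, at 0.0223 and 0.120 FPKM in 2 others, and listed at 0 in 3. These 4 were thus high in the library with the germ cell sum of 13638 FPKM, as Nr4a3 was, while Egr1, at 3.72 FPKM, was at its lowest. High values there were common, since that library was the highest for 40.2% of all genes tested. It was at least 2-fold above the mean of the other 5 for 29.3%.

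The list of 24 upstream factors and kinases held 12 values above 0 and 12 below in ventricles, with a median of 0.01. Its 1 gene without overlap, against 5.85% of all genes lying below, was Srf, the serum response factor that drives many immediate early genes, at 27.0 ± 1.01 FPKM in WT and 21.8 ± 3.24 FPKM in MED13cTg ventricles (SD, n = 3 each). In EWAT 17 were above 0 and 7 below, with a median of 0.15. Mkl2, a coactivator of Srf, was at 4.79 ± 0.0993 FPKM in WT and 5.85 ± 0.659 FPKM in MED13cTg EWAT (SD, n = 3 each) and lay above WT in all MED13cTg mice, as did 4.88% of all genes tested.

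The 14 partners and repressors had 7 values above 0 and 7 below in ventricles. Batf, an AP-1 family factor of immune cells, was at 0.940, 0.728 and 0.842 FPKM in WT animals, compared with 1.94, 1.33 and 1.65 FPKM in MED13cTg ventricles (limma, adjusted p = 0.945). In the same ventricles the macrophage markers summed to 214 to 295 FPKM in WT and to 252 to 346 FPKM with the transgene. Rxrb and Rxrg, retinoid X receptors that pair with some Nr4a receptors, lay below WT in all MED13cTg ventricles, at 28.9 ± 0.637 against 26.7 ± 0.717 FPKM and at 49.0 ± 5.58 against 42.3 ± 0.884 FPKM. Their unadjusted p was 0.262 and 0.129 (limma). Of all ventricle genes tested, 3.46% lay above in every MED13cTg library, as Batf did, and 5.85% below. In EWAT 7 of 13 tested were above 0, with Atf7 above in all MED13cTg mice (2.03 ± 0.293 and 4.68 ± 2.18 FPKM) and Atf4, a factor of the amino acid and stress response, below (153 ± 5.44 and 108 ± 32.8 FPKM). The shares of all EWAT genes tested were 4.88% above and 7.8% below.

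The 10 heat shock genes were listed because they mark stress on cells or tissue. In ventricles 8 were tested and all 8 had log2 fold changes below 0, with a median of -0.11, and 0 were without overlap. In EWAT 3 were above 0 and 6 below, with a median of -0.36, and 2 of 9 tested lay below WT in all MED13cTg mice, against 7.8% of all genes. The entry that joins Hspa1a and Hspa1b, whose reads cannot be assigned to either gene, was at 18.9, 13.2 and 15.3 FPKM in WT animals, compared with 4.21, 1.79 and 12.8 FPKM in MED13cTg EWAT. Hspa8, the constitutive chaperone, was at 137 ± 3.51 and 99.7 ± 33.4 FPKM.

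Of the 8 glucocorticoid responsive genes, 1 was above 0 and 7 below in ventricles, with a median log2 fold change of -0.37. Fkbp5, a cochaperone of the glucocorticoid receptor, was at 52.3, 56.6 and 54.7 FPKM in WT animals, compared with 22.3, 15.9 and 45.3 FPKM in MED13cTg ventricles (limma, adjusted p = 0.966). Cdkn1a, the cell cycle inhibitor p21, was at 37.2 ± 5.60 and 20.3 ± 7.77 FPKM, and Tsc22d3 (GILZ) was at 177 ± 17.3 and 137 ± 27.0 FPKM. All 3 were without overlap and lower in MED13cTg ventricles, against 5.85% of all genes lying below, and none passed the test. In EWAT 2 were above 0 and 6 below, with a median of -0.46. Fkbp5 was at 142, 156 and 163 FPKM in WT animals, compared with 36.2, 51.3 and 127 FPKM in MED13cTg EWAT (limma, adjusted p = 0.738), and Cdkn1a was at 21.3 ± 3.56 and 11.9 ± 3.61 FPKM. Klf9, another target of the receptor, was at 10.2 ± 0.0542 FPKM in WT EWAT, compared with 15.3, 42.8 and 11.0 FPKM in MED13cTg EWAT, above WT in every mouse. Of all EWAT genes tested, 4.88% lay above in this way and 7.8% below, as Fkbp5 and Cdkn1a did.

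The genes most like the mean profile of the members were those with the lowest mean absolute difference from it, on log2(FPKM + 1) centred over the 6 libraries of a tissue. In ventricles, among 9279 genes, these were Tcf15 (0.0442), Ramp3 (0.0529), Grrp1 (0.0681), Mfap5 (0.0784) and Gpr4 (0.0799). Tcf15, a transcription factor found in endothelium, was at 70.2, 46.4 and 34.5 FPKM in WT animals, compared with 45.5, 52.8 and 39.8 FPKM in MED13cTg ventricles. Ramp3, an accessory protein of the adrenomedullin receptor, was at 15.8, 8.94 and 6.87 FPKM in WT animals, compared with 9.19, 9.27 and 7.37 FPKM in MED13cTg ventricles. For both genes WT replicate 1 was the highest and WT replicate 3 the lowest. In EWAT, among 10895 genes, the closest were Ddx26b (0.0303), C330006K01Rik (0.0366), Mrpl44 (0.0366), A230072C01Rik (0.0435) and Epn1 (0.0470). For all 5 the lowest library was MED13cTg replicate 1, with Ddx26b at 14.1 FPKM there and between 19.3 and 22.9 FPKM in the others. The members themselves diverged in that library, from -1.63 for Ier2 to 1.28 for Nr4a3 on the log2 scale against the WT mean. Closeness to their EWAT mean profile is thus not likeness to each member. The same limit holds in ventricles. There 8 of the 10 members were highest in WT replicate 1, Jun in WT replicate 2 and Egr1 in MED13cTg replicate 2.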

How the data were processed

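RNA from ventricles and EWAT of WT and MED13cTg mice was sequenced from TruSeq libraries, 1 per mouse. The authors aligned reads with TopHat (mm9, per the submitters' processing notes) and estimated FPKM with Cufflinks at default settings; versions and gene annotation are not given in the sources used here. The deposited tables hold 1 FPKM value per gene and library, plus the authors' genotype means and fold, which were not used. An unnamed column in the deposited EWAT file (1 in all) was left aside, and 341 entries per table join several symbols. Absolute depth is unknown from FPKM. An FPKM corrects for length and mapped fragments but not for tissue makeup. The labels give 1 ug of RNA per library, and the paper differs on this and on age.

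Members were matched by symbol. Each tissue was fitted alone by limma 3.58.1 (R 4.3.3) after taking log2(FPKM + 1) (lmFit, eBayes with a mean-variance trend, Benjamini-Hochberg adjustment), keeping genes that averaged 1 FPKM or more. Such fold changes are too small for genes at low FPKM. The limma p-values set the genotype difference against the spread between mice of the same genotype, moderated across genes by eBayes. In EWAT the marker sums also differed between mice, and their part in that spread was not tested. Exact permutation tests were two-sided and cannot go below 0.1. Relative depth came from ratios of values under 0.15 FPKM. Replicate numbers come from the labels. In EWAT the deviations of same-numbered libraries correlated at 0.347, 0.304 and 0.144, and those of differently numbered ones at -0.417 to 0.168. These ranges overlapped, so the numbers may not be pairs, and the part of tissue makeup in the correlations was not tested. The main fit and the permutation tests were unpaired, with the replicate block as an alternative. No label ties a mouse's ventricle to its EWAT. Named genes were all members, from each list up to 4 genes per tissue (those called, then those without overlap by fold change), and 5 genes by likeness, averaging 5 FPKM or more. A gene that this rule names is not reported here. The members, lists and alternatives were chosen with earlier results of these data known.

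On simulated data with 200 genes changed by 2 on the log2 scale, the limma steps recovered 180 in ventricles (12378 genes, 12 of 192 calls false) and 179 in EWAT (13464 genes, 12 of 191 false). With no gene changed, 2 were called in ventricles and 0 in EWAT. The changed genes were drawn only from those with a WT mean of log2(FPKM + 1) above 2. The simulated noise was normal and was set from the spread of the WT libraries alone. In EWAT the MED13cTg libraries differed more from each other than the WT libraries did. The recovery there therefore does not measure the power of the real EWAT test. In ventricles all 7 members tested had a residual SD above the median of all genes. The ventricle recovery therefore does not measure the power for the members. Alternatives tried were array weights, the replicate block, quantile normalization, median-of-ratios scaling, a fit without the trend, no filter, a minimum of 5 FPKM, a pseudocount of 0.1, each library left out, the ventricle library cluster and the EWAT epididymis sum. Python 3.11.15 with scipy 1.17.1, pandas 2.3.3, matplotlib 3.10.9 and numpy 2.4.6 gave the remaining values and figures. Promoters came from RefSeq on GRCm38.p6 and were not joined to mm9 coordinates; Ier2 and Egr1 sequences were not used here.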

Additional observations from a re-analysis of the deposited data

How the results depend on the processing

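No member was called in limma under any alternative run in either tissue, and the lowest adjusted p of a member was 0.168 in ventricles (array weights) and 0.142 in EWAT (without MED13cTg replicate 3). The replicate block and the fits without the trend, without a filter or with a minimum of 5 FPKM left each log2 fold change as it was. Their values could not change sign, and they are counted in the totals that follow. Of the log2 fold changes of members under alternatives, 17 of 144 in ventricles and 11 of 145 in EWAT changed sign, and the cause was not tested. In ventricles these were Junb (-0.086), Ier2 (-0.19) and Nr4a2 (-0.041) with the library cluster as a covariate, Nr4a2 with quantile normalization (-0.0273), and Atf3 (0.14) and Nr4a3 (0.16) with array weights. In EWAT they were Fos with array weights (0.22), Egr1 with quantile normalization (-0.13), and Egr1 (-0.42) and Nr4a1 (0.24) with the epididymis sum as a covariate.

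With 1 library left out, the ventricle values ran from -0.38 to 0.19 for Fos, -0.32 to 0.00548 for Fosb, -0.12 to 0.30 for Junb, -0.35 to 0.34 for Atf3, -0.16 to 0.42 for Ier2, -0.11 to 0.14 for Nr4a2, -0.38 to 0.089 for Nr4a3 and, with no change of sign, -2.14 to -0.42 for Nr4a1 and 0.12 to 0.72 for Egr1. The median over the members ran from -0.31 to 0.16, and was 0.08 with array weights. In EWAT they ran from -0.82 to 0.38 for Fos, -0.36 to 0.48 for Egr1 and -0.66 to 0.00467 for Atf3, and the median over the members from -0.43 to -0.0175.

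Over all genes, the ventricle count called higher was 3 in the main fit and 7 with array weights, and 3 to 6 with 1 library left out. The count called lower was 4, and 1 with no filter, 1 with a filter at 5 FPKM, 8 with array weights, 1 with the replicate block, and 0 to 4 with 1 library left out. In ventricles same-numbered libraries correlated at 0.0855, -0.192 and 0.14, and differently numbered ones at -0.271 to 0.188, so no pairing was seen there. The EWAT count called higher was 0, and 0 to 2 with 1 library left out. The count called lower was 2, and 0 with no filter, array weights, the replicate block or the epididymis sum, and 0 to 4 with 1 library left out. The replicate block changed no call of a member. Absolute depth is unknown from FPKM, so no limit from depth could be set.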
